A study of Mus musculus with 9 samples.

Results

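Hox genes encode homeodomain transcription factors that lie side by side in 4 chromosomal clusters, HoxA to HoxD. They were chosen by symbol alone: every row of the count table named Hox, a cluster letter from a to d and a paralog number was a member, which gave 39 of the 55385 genes listed. All 39 are annotated as protein-coding in GENCODE M21 (mouse genome GRCm38, mm10), and all bear an identifier of that release with the same version. HoxA holds 11 members on chromosome 6, HoxB 10 on chromosome 11 from 96194316 to 96368256, HoxC 9 on chromosome 15 from 102921103 to 103036852, and HoxD 9 on chromosome 2 from 74668310 to 74765142.

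RNA came from kidneys of male mice, 9 to 12 weeks old and weighing 25 to 30 g, in 3 groups of 3 biological replicates. In the d14 group, Sox9IRES-CreERT2/+:R26RtdT/+ mice had ischemia-reperfusion injury (IRI, a temporary stop of the blood supply) of both kidneys, received tamoxifen on days 10 and 12, and gave cells on day 14. In the 48 h group, mice of the same genotype received tamoxifen when the injury was made and gave cells 48 h later. In the uninjured group, Slc34a1IRES-CreERT2/+:R26RtdT/+ mice received tamoxifen without IRI. No source used here says whether they had a sham operation. All mice carried 1 copy of the R26RtdT reporter, in which Cre activity leaves a cell and its descendants red, and red cells were sorted from cortex and outer medulla. CreERT2 was driven by Sox9, which encodes a transcription factor switched on in injured tubules and also present in other kidney epithelia, or by Slc34a1, whose product takes up phosphate in the proximal tubule. The Cre allele, the injury and the tamoxifen schedule differ together between the groups, so their parts cannot be told apart.

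In the embryo, Hox genes are switched on in the order in which they stand in a cluster and give cells their position along the body axis, and genes with the same number in different clusters (paralogs) often act redundantly. HOX proteins bind DNA with cofactors of the PBX and MEIS families, while Polycomb proteins keep the clusters silent and Trithorax proteins keep them active. In the mouse kidney, the paralogs of number 11 are needed for the induction of the ureteric bud, those of number 10 act in the stroma, and Hoxb7 is a classical gene of the ureteric bud and its descendant, the collecting duct. Adult kidney epithelia retain Hox transcripts, which differ between nephron segments.

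Total counts ranged from 19239354 to 30414758 in the d14 libraries, from 8036054 to 23794029 in the 48 h libraries and from 31585507 to 51631204 in the uninjured libraries. Mitochondrial transcripts took 15.2 to 25.2% of counts in d14 libraries, 32.7 to 39.2% in 48 h libraries and 25.1 to 29.2% in uninjured libraries. As a check of the labels, Sox9 had 38.8, 32.1 and 28.8 CPM (the standard depth-normalised unit of read counts, here taken relative to the TMM-scaled library size) in d14 cells, 7.57, 15.1 and 22.1 CPM in 48 h cells, and 0.152, 0.0351 and 0.635 CPM in uninjured cells. Slc34a1 had 994, 1620 and 1653 CPM in d14 cells, 4404, 1147 and 1895 CPM in 48 h cells, and 4796, 4626 and 4807 CPM in uninjured cells. The 48 h replicate 1 had more than its fellow 48 h libraries of Slc34a1 and of endothelial markers.

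Of the 39 Hox genes, 28 averaged above 1 CPM in at least 1 group, and 22 did so in all 3 groups. By group, 24 were above 1 CPM in d14 cells, 27 in 48 h cells and 25 in uninjured cells. In every library of the group the threshold was passed by 23, 24 and 21 members in the d14, 48 h and uninjured groups. A filter on low counts (at least 10 counts in enough libraries) kept 31 members for testing. Hoxa2, Hoxa11 and Hoxd11 passed that filter without averaging above 1 CPM in any group. The 8 that failed it were Hoxa13, Hoxb13, Hoxc12, Hoxc13, Hoxd12 and Hoxd13, with no count in any of the 9 libraries, Hoxb1 with 12 counts in all, and Hoxd1 with 4. A count of 0 allows up to 3 counts in a library, which is 0.0651 to 0.431 CPM depending on its depth. All genes numbered 12 or 13, the last of each cluster to come on along the body axis, were thus at 0.

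**Figure D1:**
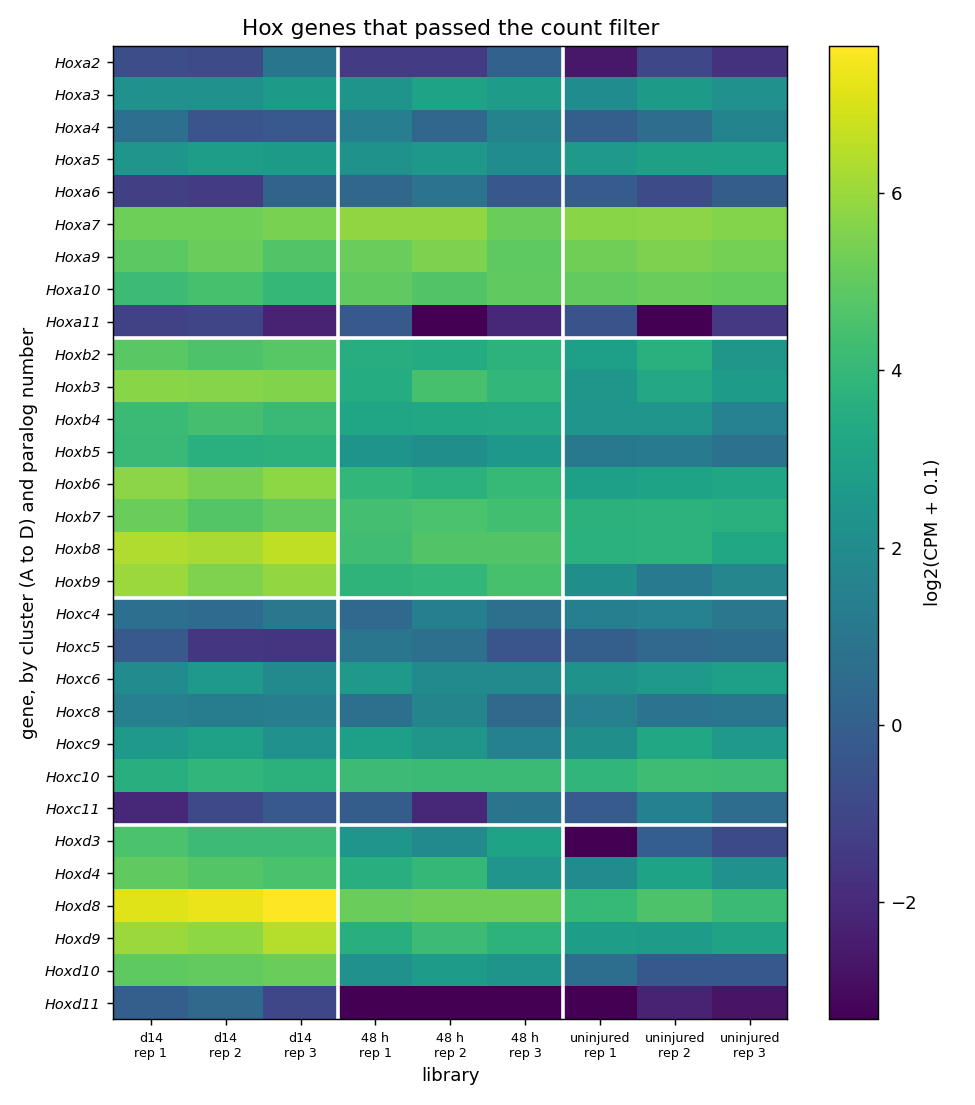
Level of 30 of the 31 Hox genes that passed the count filter, as log2(CPM + 0.1), in each library (columns, grouped as d14, 48 h and uninjured) by cluster and paralog number (rows). The HoxB rows from Hoxb2 to Hoxb9 and the HoxD rows from Hoxd3 to Hoxd10 are brightest in the d14 columns, while Hoxa7, Hoxa9 and Hoxa10 are bright in all 9 columns.

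The HoxB and HoxD clusters were high in d14 cells and intermediate in 48 h cells, while HoxA and HoxC stayed near the uninjured level or below it. Summed over a cluster, HoxD reached 317 ± 42.9 CPM in d14 cells, 74.8 ± 7.75 CPM in 48 h cells and 33.5 ± 6.09 CPM in uninjured cells (SD, n = 3 each here and below). HoxB summed to 333 ± 29.8, 119 ± 11.9 and 58.5 ± 8.33 CPM in d14, 48 h and uninjured cells. HoxA summed to 104 ± 6.36, 134 ± 16.9 and 143 ± 8.24 CPM and HoxC to 28.9 ± 3.80, 33.8 ± 4.21 and 37.4 ± 6.09 CPM in the same order of groups. The HoxB and HoxD sums did not overlap between any 2 groups. The HoxA sums in d14 libraries (99.0 to 111.4 CPM) also lay below those in 48 h (114.7 to 147.5 CPM) and uninjured libraries (135.8 to 152.1 CPM). The HoxC sums overlapped between groups. As a share of all Hox counts, which needs no scaling between libraries, HoxB and HoxD together made up 80.5 to 84.7% in d14 libraries, 49.9 to 58.1% in 48 h libraries and 31.3 to 35.5% in uninjured libraries. In bulk RNA, fewer cells of a type and less RNA per cell cannot be told apart.

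**Figure D2:**
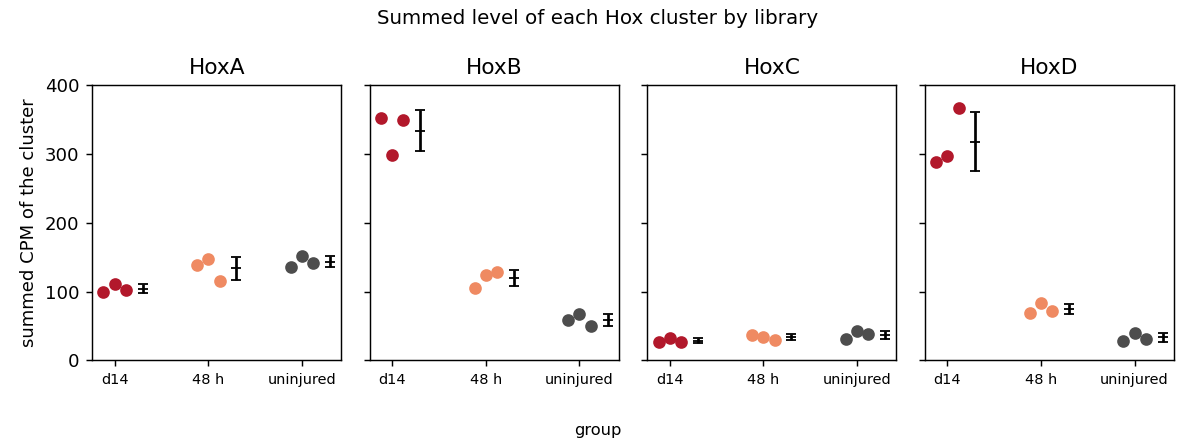
Summed CPM of each Hox cluster (1 panel per cluster, shared vertical axis from 0) in each library of the d14, 48 h and uninjured groups, with the mean and SD (n = 3) beside the points. HoxB and HoxD are highest in d14, intermediate in 48 h and lowest in uninjured libraries, HoxA is lower in d14 than in uninjured libraries, and HoxC overlaps between groups.

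Differences were tested with edgeR's quasi-likelihood test on all 9 libraries, with Benjamini-Hochberg adjustment over the 15519 genes tested, and a gene is said to rise or fall at an adjusted p under 0.05. In d14 against uninjured cells, 14 of 39 Hox genes (31 tested) rose and 1 fell, against 25.1% of all genes tested that rose and 20.7% that fell. By cluster, 8 of 10 HoxB members (8 tested), 6 of 9 HoxD members (6 tested), 0 of 11 HoxA members (10 tested) and 0 of 9 HoxC members (7 tested) rose. The gene that fell was Hoxa10. In 48 h against uninjured cells, 11 of 39 (31 tested) rose and 0 fell, beside 17.4% and 11.7% of all genes tested. Those 11 were 7 HoxB and 4 HoxD members. In d14 against 48 h cells, 13 of 39 (31 tested) rose (8 in HoxB, 5 in HoxD) and 1 fell (Hoxa10), beside 16.8% and 16.3% of all genes tested. At an unadjusted p under 0.05 there were 18, 12 and 17 of the 31 Hox genes tested in the 3 comparisons in this order (58.1, 38.7 and 54.8%), beside 52.8, 40.2 and 43.3% of all genes tested. None of the 12 in 48 h against uninjured cells was a HoxA or HoxC member. No Hox gene fell in 48 h against uninjured cells by DESeq2 or limma voom either. The comparisons share groups, so their calls are not independent of each other.

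Every member that rose or fell had groups that did not overlap in that comparison. Groups that do not overlap were found in 34.4% (higher) and 28.9% (lower) of all genes in d14 against uninjured cells, in 21.5% and 20.8% in 48 h against uninjured cells and in 26.7% and 20.6% in d14 against 48 h cells. When libraries were not scaled for composition (no TMM), the all-gene median moved on the log2 scale by 0.57 for d14 against uninjured, by 0.57 for d14 against 48 h and by -0.0081 for 48 h against uninjured cells. All genes called then numbered 7315 higher and 1417 lower in d14 against uninjured cells, where TMM gave 3898 and 3214, and 6812 higher and 934 lower in d14 against 48 h cells, where TMM gave 2604 and 2533. The HoxB and HoxD calls kept their direction without that scaling, while Hoxa10 was no longer called.

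**Figure D3:**
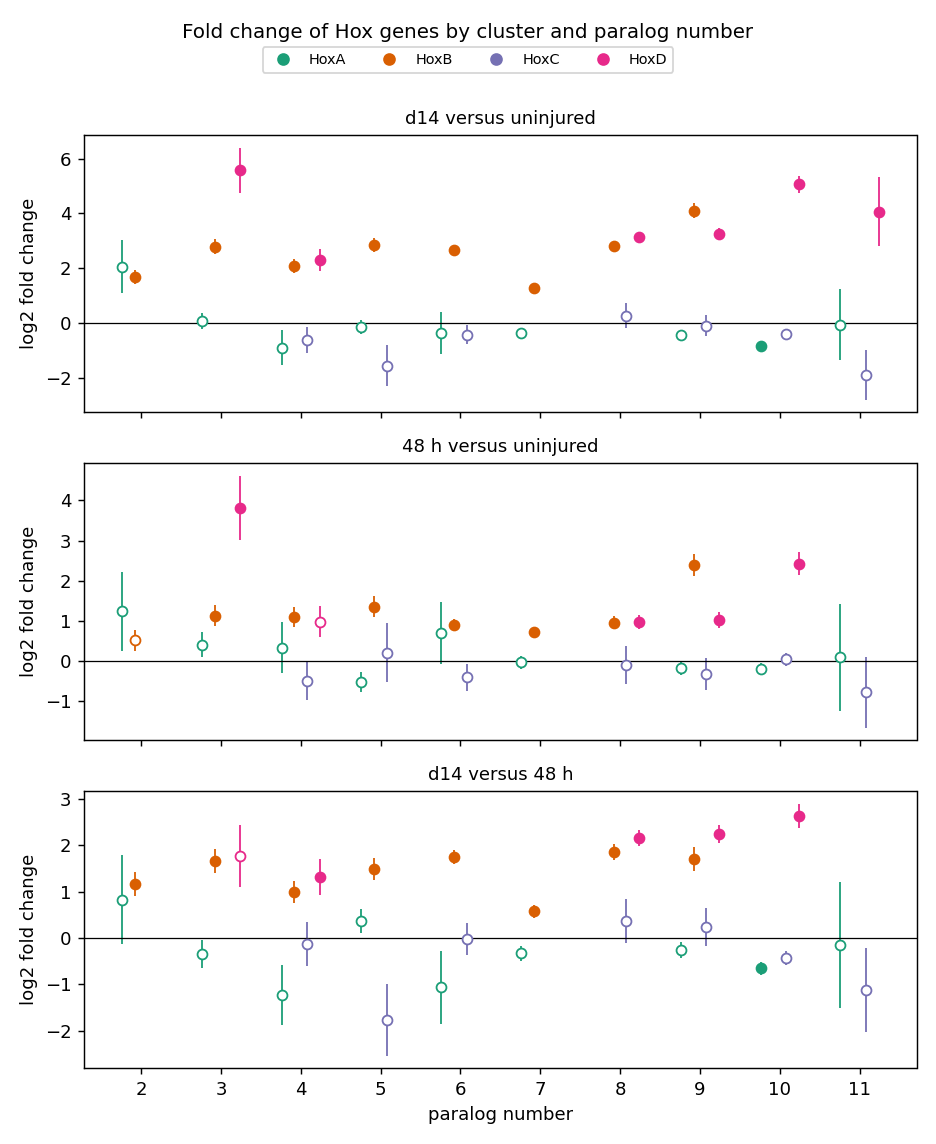
Log2 fold change with its SE (edgeR) of 30 tested Hox genes by paralog number (horizontal axis) and cluster (color), for d14 versus uninjured, 48 h versus uninjured and d14 versus 48 h from top to bottom. Filled points have an adjusted p under 0.05; Hoxd11 is left out of the lower panels because all 48 h libraries were at 0. HoxB and HoxD points lie above 0 in each panel, and most HoxA and HoxC points lie near or below it.

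Hoxd8 (ENSMUSG00000027102.4, chromosome 2 from 74704615 to 74707933), which acts in patterning of the trunk with its paralogs Hoxb8 and Hoxc8, was the most abundant Hox gene per kb of exon in d14 cells. It had 139, 163 and 202 CPM in d14 libraries, 35.5, 39.2 and 38.8 CPM in 48 h libraries and 16.4, 23.9 and 17.7 CPM in uninjured libraries. All d14 values lay above all 48 h values, which lay above all uninjured values. The log2 fold change was 3.12 ± 0.18 (SE) in d14 against uninjured cells (edgeR adjusted p = 2.27e-07), 0.97 ± 0.17 in 48 h against uninjured cells (0.00175) and 2.15 ± 0.17 in d14 against 48 h cells (2.37e-05).

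Hoxd9 (ENSMUSG00000043342.9, chromosome 2 from 74697727 to 74700208), a patterning gene of the forelimb and spine, had 63.5, 56.0 and 87.1 CPM in d14 libraries, 12.2, 18.4 and 13.7 CPM in 48 h libraries and 7.04, 6.63 and 7.995 CPM in uninjured libraries. The 3 groups again formed separate steps, with log2 fold changes of 3.25 ± 0.20 in d14 against uninjured, 1.01 ± 0.20 in 48 h against uninjured and 2.24 ± 0.20 in d14 against 48 h cells (edgeR adjusted p = 4.08e-07, 0.00337 and 3.84e-05). Hoxd10 (ENSMUSG00000050368.4, chromosome 2 from 74691924 to 74695105), which acts in the lumbar spinal cord and hindlimb, had 30.2, 32.1 and 35.5 CPM in d14 libraries, 4.60, 6.47 and 4.98 CPM in 48 h libraries and 1.46, 0.702 and 0.711 CPM in uninjured libraries. All d14 values lay above all 48 h values, which lay above all uninjured values. Its log2 fold change was 5.06 ± 0.30 in d14 against uninjured, 2.43 ± 0.29 in 48 h against uninjured and 2.63 ± 0.27 in d14 against 48 h cells (edgeR adjusted p = 2.47e-07, 1.34e-04 and 6.65e-05).

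Hoxd3 (ENSMUSG00000079277.9, chromosome 2 from 74711927 to 74748442), of the paralog group that patterns the neck, had 23.0, 18.2 and 18.5 CPM in d14 libraries, 5.33, 3.59 and 8.30 CPM in 48 h libraries, and 0, 0.878 and 0.457 CPM in uninjured libraries. It rose in d14 against uninjured cells (log2 fold change 5.58 ± 0.82, edgeR adjusted p = 4.42e-04) and in 48 h against uninjured cells (3.82 ± 0.79, 0.00680). Between d14 and 48 h cells the groups did not overlap, but the change of 1.76 ± 0.67 was not called (edgeR adjusted p = 0.0728) in the fit of all libraries; without uninjured replicate 1, the library at 0, it was called (0.00300). Hoxd4 (ENSMUSG00000101174.8, chromosome 2 from 74711929 to 74729160), a gene of the hindbrain and neck, had 31.5, 26.3 and 22.8 CPM in d14 libraries, 12.0, 16.0 and 5.26 CPM in 48 h libraries and 3.80, 8.11 and 4.59 CPM in uninjured libraries. The d14 values lay above all others, and the 48 h and uninjured values overlapped. Hoxd4 rose by 2.30 ± 0.39 on the log2 scale in d14 against uninjured cells (edgeR adjusted p = 8.52e-04) and by 1.32 ± 0.39 in d14 against 48 h cells (0.0262). The d14 against 48 h call was lost without d14 replicate 1 (0.0779), d14 replicate 2 (0.0582) or 48 h replicate 1 (0.0517), and with no filter on low counts (0.0774). In 48 h against uninjured cells the change was 0.98 ± 0.39 (0.0897), which became a call without 48 h replicate 3 (0.0129) or uninjured replicate 2 (0.0415), and by DESeq2 (0.0395).

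The exons of Hoxd3 and Hoxd4 overlap each other and the read-through gene Gm28230 on the same strand, over 62.3% of the exon bases of Hoxd3 and 52.3% of those of Hoxd4, so the split of reads among them is uncertain. Summed with Gm28230, they had 66.3, 64.3 and 62.6 CPM in d14 libraries, 20.3, 25.3 and 17.4 CPM in 48 h libraries and 4.84, 10.3 and 5.76 CPM in uninjured libraries. The sum, an alternative chosen after seeing the data, formed 3 separate steps and changed by 3.22 ± 0.26 on the log2 scale in d14 against uninjured, 1.59 ± 0.25 in 48 h against uninjured and 1.63 ± 0.25 in d14 against 48 h cells (edgeR adjusted p = 3.30e-06, 0.00108 and 7.88e-04). Hoxd11, one of the paralogs needed for kidney induction, stayed near the detection limit. It had 0.915, 1.31 and 0.408 CPM in d14 libraries, 0 in every 48 h library, and 0, 0.105 and 0.0508 CPM in uninjured libraries. Pooled counts were 74 in d14, 0 in 48 h and 5 in uninjured cells, so d14 cells were at least 12.7-fold higher than 48 h cells (against 3 counts over the group) and 18.7-fold higher than uninjured cells (95% interval of the count ratio 7.64 to 59.1, counting error only). Hoxd11 was called in both d14 comparisons (edgeR adjusted p = 0.0259 against uninjured and 0.0181 against 48 h cells). The call against uninjured cells was lost without d14 replicate 1 (0.0787) or 2 (0.0963) and without uninjured replicate 1 (0.0876) or 3 (0.0917), and that against 48 h cells without d14 replicate 2 (0.0568).

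In HoxB, the 8 members that passed the count filter, Hoxb2 to Hoxb9, all rose in d14 against uninjured cells. Hoxb8 (ENSMUSG00000056648.5, chromosome 11 from 96281905 to 96285315), a trunk patterning gene also active in blood progenitors, had 81.3, 75.2 and 96.7 CPM in d14 libraries, 19.5, 25.4 and 25.2 CPM in 48 h libraries and 12.9, 13.6 and 9.62 CPM in uninjured libraries. Its groups formed 3 separate steps. The log2 fold change was 2.81 ± 0.17 in d14 against uninjured, 0.96 ± 0.17 in 48 h against uninjured and 1.86 ± 0.17 in d14 against 48 h cells (edgeR adjusted p = 3.25e-07, 0.00166 and 3.94e-05). Hoxb9 (ENSMUSG00000020875.9, chromosome 11 from 96271457 to 96276595), which patterns the thoracic skeleton, had 65.2, 46.3 and 58.6 CPM in d14 libraries, 13.97, 15.4 and 22.3 CPM in 48 h libraries and 4.39, 2.11 and 3.27 CPM in uninjured libraries. It was low in uninjured cells and had the largest fold change of HoxB in d14 against uninjured cells, 4.10 ± 0.28 on the log2 scale, with 2.39 ± 0.27 in 48 h against uninjured and 1.71 ± 0.26 in d14 against 48 h cells (edgeR adjusted p = 1.05e-06, 1.18e-04 and 7.11e-04).

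Hoxb6 had 53.4, 42.6 and 55.6 CPM in d14 libraries, 15.5, 12.8 and 16.3 CPM in 48 h libraries and 7.34, 8.18 and 8.68 CPM in uninjured libraries. Hoxb5, which acts in enteric neurons and lung, had 17.0, 12.4 and 13.03 CPM in d14 libraries, 4.99, 4.31 and 5.72 CPM in 48 h libraries and 2.09, 2.25 and 1.60 CPM in uninjured libraries. Both genes formed 3 separate steps. In d14 against uninjured cells the log2 fold changes were 2.65 ± 0.15 for Hoxb6 and 2.84 ± 0.26 for Hoxb5 (edgeR adjusted p = 2.36e-07 and 5.56e-06). In 48 h against uninjured cells they were 0.89 ± 0.15 and 1.35 ± 0.25 in the same order (0.00138 and 0.00246). In d14 against 48 h cells they were 1.76 ± 0.15 and 1.49 ± 0.25 (3.36e-05 and 0.00119).

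Hoxb7 (ENSMUSG00000038721.8, chromosome 11 from 96286623 to 96290162), the ureteric bud gene, had 36.4, 26.4 and 32.7 CPM in d14 libraries, 20.5, 23.4 and 20.4 CPM in 48 h libraries and 13.4, 13.6 and 12.3 CPM in uninjured libraries. It had the smallest change among the HoxB calls of d14 against uninjured cells, 1.28 ± 0.15 on the log2 scale (edgeR adjusted p = 2.99e-05), and rose by 0.71 ± 0.15 in 48 h against uninjured cells (0.00437). In d14 against 48 h cells it rose by 0.58 ± 0.15 (0.0116), a call that was lost without d14 replicate 1 (0.0556). Hoxb4, an activator of blood stem cell expansion, had 17.8, 21.7 and 17.4 CPM in d14 libraries, 9.03, 9.63 and 9.82 CPM in 48 h libraries and 5.30, 5.27 and 2.82 CPM in uninjured libraries. It rose in similar steps, by 1.09 ± 0.25 in 48 h against uninjured and 1.00 ± 0.24 in d14 against 48 h cells (edgeR adjusted p = 0.00713 and 0.00946), with 2.09 ± 0.25 in d14 against uninjured cells (4.05e-05).

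Hoxb3 had 51.8, 50.7 and 47.6 CPM in d14 libraries, 10.9, 21.9 and 15.4 CPM in 48 h libraries and 5.58, 9.69 and 6.52 CPM in uninjured libraries. Hoxb2, a gene of the hindbrain, had 28.4, 23.7 and 27.7 CPM in d14 libraries, 11.3, 10.6 and 13.5 CPM in 48 h libraries and 7.14, 12.4 and 5.56 CPM in uninjured libraries. Hoxb3 formed 3 separate steps, while for Hoxb2 the 48 h and uninjured libraries overlapped through uninjured replicate 2. Hoxb3 changed by 2.79 ± 0.26 in d14 against uninjured, 1.13 ± 0.25 in 48 h against uninjured and 1.66 ± 0.25 in d14 against 48 h cells (edgeR adjusted p = 7.78e-06, 0.00743 and 7.40e-04). Hoxb2 rose by 1.68 ± 0.26 in d14 against uninjured and by 1.16 ± 0.26 in d14 against 48 h cells (3.02e-04 and 0.00632). In 48 h against uninjured cells the Hoxb2 change of 0.51 ± 0.26 was not called (0.169), but it was without uninjured replicate 2 (0.89 on the log2 scale, 0.0106). Hoxb3 shares 52.9% and Hoxb2 27.3% of its exon bases with the antisense gene Hoxb3os on the opposite strand. The libraries were strand-specific, but no source used here gives the strand setting of the counting, so reads of a gene and its antisense partner cannot be told apart. Hoxb3os itself fell, with 2.71 ± 1.61 CPM in d14 cells, 3.93 ± 3.84 CPM in 48 h cells and 10.0 ± 1.201 CPM in uninjured cells and a log2 fold change of -1.89 ± 0.61 in d14 against uninjured cells (0.0281). In 48 h against uninjured and d14 against 48 h cells the Hoxb3os change was not called (0.135 and 0.513).

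Of the 3 abundant HoxA genes, Hoxa10 fell in both d14 comparisons, while Hoxa7 and Hoxa9 did not pass the test in any comparison. Hoxa10 (ENSMUSG00000000938.11, chromosome 6 from 52231197 to 52240854), which acts in the kidney stroma and the uterus, had 18.3, 21.9 and 15.9 CPM in d14 libraries, 31.3, 25.3 and 31.5 CPM in 48 h libraries and 32.5, 35.2 and 33.3 CPM in uninjured libraries. The d14 libraries lay below all others. Hoxa10 fell by 0.85 ± 0.14 on the log2 scale in d14 against uninjured and by 0.66 ± 0.15 in d14 against 48 h cells (edgeR adjusted p = 5.69e-04 and 0.00602), with -0.19 ± 0.14 in 48 h against uninjured cells (0.353). Without composition scaling these d14 changes were -0.28 (0.175) and -0.085 (0.707), so the fall is one relative to the median gene.

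Hoxa7 had 38.1, 37.9 and 43.7 CPM in d14 libraries, 56.7, 57.9 and 36.6 CPM in 48 h libraries and 51.8, 53.3 and 49.6 CPM in uninjured libraries. Hoxa9, a gene of the trunk and of blood stem cells, had 29.4, 37.0 and 25.4 CPM in d14 libraries, 35.3, 45.4 and 30.4 CPM in 48 h libraries and 38.4, 45.1 and 41.7 CPM in uninjured libraries. In both genes every d14 library lay below every uninjured library, with log2 fold changes of -0.37 ± 0.16 for Hoxa7 and -0.45 ± 0.17 for Hoxa9 that missed the threshold (edgeR adjusted p = 0.0810 and 0.0503) and turned positive without composition scaling (0.19 and 0.11). Hoxa9 was called lower without d14 replicate 2 (0.0207) and without 48 h replicate 2 (0.0232) or 3 (0.0386), and Hoxa7 without 48 h replicate 3 (0.0140), each in d14 against uninjured cells. In that comparison both were also called lower with no filter on low counts (Hoxa9 0.0176, Hoxa7 0.0385), by voom (0.0106 and 0.0349) and with only the 2 groups in the fit (0.0155 and 0.00414), and Hoxa9 also by DESeq2 (0.0480). In d14 against 48 h cells the Hoxa7 change was -0.33 ± 0.16 (edgeR adjusted p = 0.141), and -0.52 without 48 h replicate 3 (0.00835).

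Lower in level, Hoxa5, a gene of lung and upper spine, had 5.35, 6.85 and 6.31 CPM in d14 libraries, 4.88, 5.75 and 3.92 CPM in 48 h libraries and 5.93, 7.58 and 7.18 CPM in uninjured libraries. Hoxa3, needed for thymus and parathyroid, had 4.58, 4.55 and 6.29 CPM in d14 libraries, 5.11, 8.19 and 6.36 CPM in 48 h libraries and 3.93, 6.21 and 4.57 CPM in uninjured libraries. Groups overlapped in both genes except for Hoxa5 in 48 h against uninjured cells (log2 fold change -0.52 ± 0.26, edgeR adjusted p = 0.157). Around 1 CPM, Hoxa4 had 1.51, 0.633 and 0.735 CPM in d14 libraries, 2.53, 1.15 and 2.95 CPM in 48 h libraries and 0.890, 1.44 and 3.05 CPM in uninjured libraries. Hoxa6 had 0.317, 0.277 and 1.03 CPM in d14 libraries, 1.12, 1.73 and 0.691 CPM in 48 h libraries and 0.804, 0.491 and 0.838 CPM in uninjured libraries. None of these 4 genes was called in any comparison in the edgeR fit as reported, and the last 2 had few counts. The shallowest library, 48 h replicate 2, gave 8 counts of Hoxa4 and 12 of Hoxa6. The deeper d14 replicates 1 and 2 gave 9 and 7 counts of Hoxa6. Hoxa11, another of the paralogs of kidney induction, averaged 0.286, 0.289 and 0.287 CPM in d14, 48 h and uninjured cells. Hoxa2 averaged 0.942, 0.512 and 0.230 CPM, and neither was called in the edgeR fit as reported. All d14 libraries of Hoxa2 lay above all uninjured ones, at a log2 fold change of 2.06 ± 0.98 (edgeR adjusted p = 0.108).

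No HoxC member was called in any comparison in the edgeR fit as reported. In d14 against uninjured cells 1 of the 7 tested had an unadjusted p under 0.05, beside 52.8% of all genes. In 48 h against uninjured cells the number was 0, beside 40.2%, and in d14 against 48 h cells 2, beside 43.3%. DESeq2 called Hoxc5 and Hoxc10 lower in d14 cells against both other groups. Hoxc10 (ENSMUSG00000022484.7, chromosome 15 from 102966796 to 102971893), a gene of the lumbar region and hindlimb, was the most abundant, with 11.7, 15.1 and 13.2 CPM in d14 libraries, 18.6, 17.7 and 17.6 CPM in 48 h libraries and 14.8, 19.2 and 18.5 CPM in uninjured libraries. Its d14 libraries lay below all 48 h libraries and overlapped the uninjured ones, with log2 fold changes of -0.39 ± 0.16 in d14 against uninjured and -0.43 ± 0.16 in d14 against 48 h cells (edgeR adjusted p = 0.0616 and 0.0575). Both were positive without composition scaling (0.17 and 0.13), and the first was called without uninjured replicate 1 (-0.50, 0.0436). The first was also called with only the 2 groups in the fit (-0.43, 0.0367). The second was called with the size factors of DESeq2 in edgeR (-0.45, 0.0467). Summed with Hoxc5, whose annotation shares exon bases with Hoxc10, an alternative chosen after seeing the data, the change was called in both comparisons (-0.44 ± 0.15, 0.0342, and -0.49 ± 0.16, 0.0307).

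Hoxc9, which sets the identity of thoracic motor neurons, had 6.02, 7.72 and 4.57 CPM in d14 libraries, 7.35, 5.61 and 2.72 CPM in 48 h libraries and 4.34, 9.30 and 5.91 CPM in uninjured libraries. Hoxc6 had 3.80, 6.02 and 3.59 CPM in d14 libraries, 6.06, 3.74 and 3.69 CPM in 48 h libraries and 4.80, 5.93 and 7.23 CPM in uninjured libraries. Hoxc8, the paralog of Hoxb8 and Hoxd8, had 2.68, 2.42 and 2.48 CPM in d14 libraries, 1.57, 3.16 and 1.29 CPM in 48 h libraries and 2.65, 1.72 and 1.90 CPM in uninjured libraries. In these 3 genes the groups overlapped in every comparison, with log2 fold changes between -0.42 ± 0.33 (Hoxc6, d14 against uninjured) and 0.37 ± 0.48 (Hoxc8, d14 against 48 h). Hoxc4 had 1.51, 1.35 and 1.93 CPM in d14 libraries, 1.23, 2.59 and 1.57 CPM in 48 h libraries and 2.58, 2.81 and 2.03 CPM in uninjured libraries. Hoxc5 had 0.739, 0.238 and 0.218 CPM in d14 libraries, 1.91, 1.58 and 0.645 CPM in 48 h libraries and 0.912, 1.264 and 1.37 CPM in uninjured libraries. Hoxc11, of the paralog group of kidney induction, had 0.141, 0.435 and 0.735 CPM in d14 libraries, 0.842, 0.144 and 1.75 CPM in 48 h libraries and 0.782, 2.77 and 1.42 CPM in uninjured libraries. For Hoxc4, Hoxc5 and Hoxc11 all d14 libraries were below all uninjured libraries. Their log2 fold changes of -0.63 ± 0.46, -1.56 ± 0.75 and -1.90 ± 0.90 were not called as reported (edgeR adjusted p = 0.298, 0.113 and 0.109). In that comparison Hoxc11 was called lower with only the 2 groups in the edgeR fit (-1.93, 0.0478), and Hoxc5 by voom (-1.80, 0.0310).

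Per kb of exon, the order of the genes changed between groups. The length used here and below is that of all annotated exon bases of a gene, such as 5580 for Hoxa9 and 2136 for Hoxd9. The length of the transcripts present was not measured, so orders, ratios and shares between genes depend on the annotation. The divisor of a gene is the same in every library. In d14 cells Hoxd8 led with 61.3 ± 11.6 CPM per kb, followed by Hoxd9 (32.2 ± 7.60), Hoxb8 (32.0 ± 4.21), Hoxb6 (25.7 ± 3.55), Hoxb9 (22.0 ± 3.72), Hoxb7 (20.6 ± 3.25) and Hoxd10 (17.9 ± 1.48 CPM per kb). Hoxd9 and Hoxb8 differed by less than their spread, as did Hoxb6, Hoxb9 and Hoxb7 from one neighbor to the next. In 48 h cells the order was Hoxa7 (17.5 ± 4.16 CPM per kb), Hoxb7 (13.9 ± 1.11), Hoxd8 (13.8 ± 0.755), Hoxc10 (9.41 ± 0.298), Hoxa10 (8.97 ± 1.07) and Hoxb8 (8.87 ± 1.29 CPM per kb). Within the first 3 and within the last 3 of these the means lay within the spread of their neighbors. In uninjured cells Hoxa7 led with 17.9 ± 0.646 CPM per kb, ahead of Hoxa10 (10.3 ± 0.418), Hoxc10 (9.16 ± 1.22), Hoxb7 (8.47 ± 0.444), Hoxa9 (7.48 ± 0.595) and Hoxd8 (7.05 ± 1.47 CPM per kb). The gap of Hoxa7 to Hoxa10 exceeded the spread there, and the gaps between Hoxa10 and Hoxc10, Hoxc10 and Hoxb7, and Hoxa9 and Hoxd8 did not.

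A ratio of paralogs within a library needs no scaling between libraries. Hoxd9 over Hoxa9, per kb, was 5.65, 3.96 and 8.95 in d14 libraries, 0.901, 1.06 and 1.18 in 48 h libraries and 0.478, 0.385 and 0.501 in uninjured libraries. Hoxb9 over Hoxa9 was 4.81, 2.72 and 5.00 in d14 libraries, 0.858, 0.734 and 1.59 in 48 h libraries and 0.247, 0.101 and 0.170 in uninjured libraries. Hoxd10 over Hoxa10 was 2.98, 2.63 and 4.02 in d14 libraries, 0.265, 0.460 and 0.285 in 48 h libraries and 0.0806, 0.0359 and 0.0384 in uninjured libraries. In all 3 ratios the groups formed separate steps. The ratio of Hoxc9 to Hoxa9 overlapped between groups, at 0.413 to 0.479 in d14 libraries, 0.206 to 0.478 in 48 h libraries and 0.260 to 0.474 in uninjured libraries. Hoxc10 over Hoxa10 was 1.10 to 1.42 in d14 libraries, 0.958 to 1.197 in 48 h libraries and 0.782 to 0.949 in uninjured libraries, with overlap between d14 and 48 h. Hoxb7 over Hoxa7 was 1.30 to 1.78 in d14 libraries, 0.674 to 1.04 in 48 h libraries and 0.461 to 0.481 in uninjured libraries. Hoxd8 over Hoxb8, a pair from the 2 clusters that rose, was 1.64 to 2.08 in d14 libraries, 1.48 to 1.75 in 48 h libraries and 1.22 to 1.77 in uninjured libraries, with overlap.

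**Figure D4:**
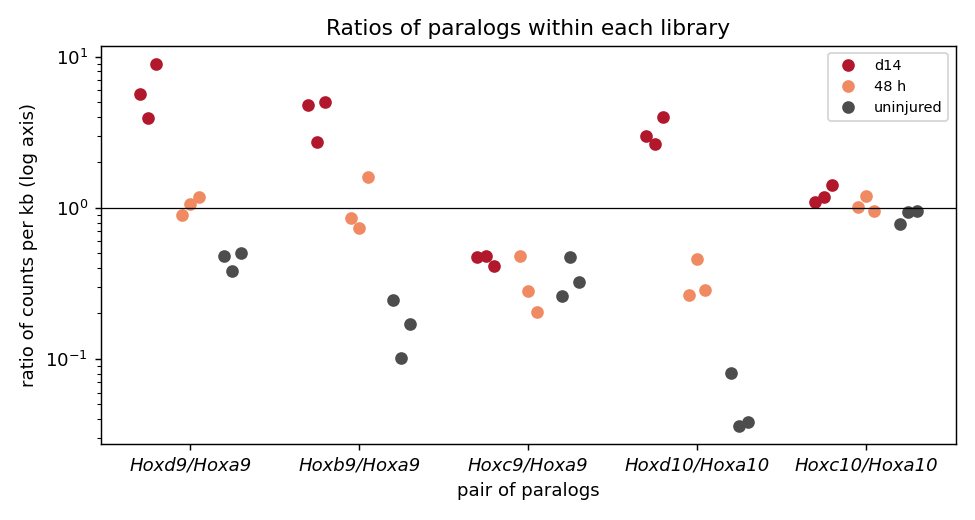
Ratio of CPM per kb of exon between paralogs in each library (log axis; red d14, orange 48 h, gray uninjured; the line marks a ratio of 1). Hoxd9/Hoxa9, Hoxb9/Hoxa9 and Hoxd10/Hoxa10 are highest in d14, intermediate in 48 h and lowest in uninjured libraries, and Hoxc9/Hoxa9 overlaps between groups.

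The makeup of whole paralog groups followed these ratios. Of the summed CPM per kb of number 9, Hoxd9 made up 51.4 ± 6.0% in d14 cells, 30.6 ± 3.39% in 48 h cells and 22.9 ± 2.91% in uninjured cells. Hoxb9 made up 35.4 ± 4.30%, 30.1 ± 8.66% and 8.72 ± 3.65% in the same order. Hoxa9 made up 9.05 ± 2.94% in d14 cells, 29.5 ± 3.88% in 48 h cells and 50.5 ± 0.483% in uninjured cells. Of the summed CPM per kb of number 10, Hoxd10 made up 58.6 ± 3.84% in d14 cells, 13.9 ± 3.04% in 48 h cells and 2.70 ± 1.42% in uninjured cells. The whole of number 8, carried by Hoxb8 and Hoxd8, amounted to 94.2, 23.4 and 12.4 CPM per kb in d14, 48 h and uninjured cells. By contrast, number 11 amounted to 0.549, 0.578 and 0.959 CPM per kb in the same groups.

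The promoter sequence is shown for 4 of the genes that rose in both d14 comparisons, Hoxd8, Hoxd9, Hoxd10 and Hoxb8, and for Hoxa10, which fell in both, so that their letters can be set beside their values. Each is the 250 bases before the annotated start of a RefSeq transcript (GRCm38.p6), and 22 of the 39 members had such a window. Capitals mark matches, on either strand, to 5 motifs chosen with the results known: AGGTCA (the half-site of nuclear receptors such as those for retinoic acid, TGACCT on the other strand), TGATNNAT (PBX with HOX), TTTATNG (posterior HOX), TGACAG (MEIS and PKNOX) and AACAAT (SOX).
Hoxd8, chr2:74704365-74704614, plus strand: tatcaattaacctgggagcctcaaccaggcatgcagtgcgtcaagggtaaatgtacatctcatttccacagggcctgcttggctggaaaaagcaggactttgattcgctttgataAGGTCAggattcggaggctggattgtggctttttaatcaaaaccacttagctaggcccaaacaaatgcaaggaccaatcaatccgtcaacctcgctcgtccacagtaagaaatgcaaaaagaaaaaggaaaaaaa
Hoxd9, chr2:74697513-74697762, plus strand: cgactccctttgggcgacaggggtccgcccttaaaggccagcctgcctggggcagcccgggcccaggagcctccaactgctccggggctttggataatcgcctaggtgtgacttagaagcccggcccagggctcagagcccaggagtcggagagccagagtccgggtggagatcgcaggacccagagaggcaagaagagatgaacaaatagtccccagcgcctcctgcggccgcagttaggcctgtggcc
Hoxd10, chr2:74691641-74691890, plus strand: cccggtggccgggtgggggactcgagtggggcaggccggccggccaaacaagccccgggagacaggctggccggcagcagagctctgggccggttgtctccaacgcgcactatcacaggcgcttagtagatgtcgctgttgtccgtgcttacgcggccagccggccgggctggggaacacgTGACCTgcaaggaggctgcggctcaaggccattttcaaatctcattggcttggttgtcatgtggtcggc
Hoxb8, chr11:96281655-96281904, plus strand: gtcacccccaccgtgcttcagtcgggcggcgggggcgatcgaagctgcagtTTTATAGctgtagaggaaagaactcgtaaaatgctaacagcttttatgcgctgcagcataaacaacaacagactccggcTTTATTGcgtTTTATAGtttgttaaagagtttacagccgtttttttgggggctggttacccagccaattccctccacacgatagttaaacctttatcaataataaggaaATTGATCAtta
Hoxa10, chr6:52240855-52241104, minus strand: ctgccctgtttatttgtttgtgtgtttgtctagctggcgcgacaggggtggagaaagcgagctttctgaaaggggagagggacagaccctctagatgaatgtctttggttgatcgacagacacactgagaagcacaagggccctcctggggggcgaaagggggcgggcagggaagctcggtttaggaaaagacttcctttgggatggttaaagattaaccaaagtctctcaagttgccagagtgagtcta

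The AGGTCA half-site occurred in the windows of 6 members, Hoxb4, Hoxc4, Hoxd3, Hoxd4, Hoxd8 and Hoxd10, of which all but Hoxc4 rose in d14 against uninjured cells. Of the 22 members with a window, 8 rose in that comparison, and the choice of motifs was made with this known. The half-site occurred in 14.02% of 32851 windows of all genes. Members are counted here and below as genes with a match in any window (22 genes, 24 windows). The shares of all windows are per window, a different unit. Hoxb8 and Hoxd4 held TTTATNG, found in 9.81% of all windows, with 3 matches in Hoxb8. TGATNNAT, in 7.68% of all windows, occurred in Hoxa2, Hoxb1, Hoxb8 and Hoxd11, and TGACAG, in 15.9%, in Hoxa2 and Hoxa3. AACAAT, in 9.42% of all windows, occurred in no member's window. The median GC content was 58.6% in the members' windows and 52.4% in all windows. Hoxd9 and Hoxa10 held none of the 5 motifs, and nor did the second window of Hoxa10, at chr6:52234940-52235189. A match describes letters and says nothing of binding.

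Among the non-coding genes of the clusters, 16 of 17 listed were in the table and 8 passed the filter. In d14 against uninjured cells 2 rose and 1 fell, in 48 h against uninjured cells 1 rose, and in d14 against 48 h cells 1 rose, with medians of 0.93, 0.33 and 0.57 on the log2 scale. Among all genes tested, 25.1, 17.4 and 16.8% rose and 20.7, 11.7 and 16.3% fell in these comparisons. The all-gene medians were 0.060, 0.020 and 0.055. Hoxb5os, antisense to Hoxb5, averaged 23.4 ± 2.73 CPM in d14 cells, 4.96 ± 2.06 CPM in 48 h cells and 0.524 ± 0.357 CPM in uninjured cells. It rose by 5.40 ± 0.48 on the log2 scale in d14 against uninjured, 3.12 ± 0.46 in 48 h against uninjured and 2.29 ± 0.41 in d14 against 48 h cells (edgeR adjusted p = 5.74e-06, 6.82e-04 and 0.00211). Haglr, beside Hoxd1, rose in d14 against uninjured cells (3.67 ± 1.259, 0.0331), with 1.50 ± 0.596 CPM in d14 cells, 0.313 ± 0.274 CPM in 48 h cells and 0.118 ± 0.123 CPM in uninjured cells. The hairpin genes of the microRNAs inside the clusters were at 0 counts in all libraries. Poly(A)-selected libraries are not made to capture microRNAs, so these zeros say nothing of microRNA levels. Hottip was also at 0 counts in all libraries.

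The nearest protein-coding genes on either side of the clusters, 8.75 to 894 kb away, did not move as one. Of 16 neighbors, 12 passed the filter, and 4 rose and 1 fell in d14 against uninjured cells, 3 rose and 2 fell in 48 h against uninjured cells, and 3 rose and 1 fell in d14 against 48 h cells, with medians of 0.23, 0.24 and 0.10 on the log2 scale. Among all genes tested, 25.1, 17.4 and 16.8% rose and 20.7, 11.7 and 16.3% fell in these comparisons. The all-gene medians were 0.060, 0.020 and 0.055. Skap1, an adaptor of T-cell signaling 96.3 kb from HoxB, averaged 4.19 ± 0.729 CPM in d14 cells, 0.799 ± 0.698 CPM in 48 h cells and 0.0447 ± 0.0568 CPM in uninjured cells, a log2 fold change of 6.28 ± 1.08 in d14 against uninjured cells (edgeR adjusted p = 6.34e-04). Cbx5, the heterochromatin protein HP1 alpha 155 kb from HoxC, rose by 1.11 ± 0.14 in the same comparison (7.70e-05). Hibadh, an enzyme of valine breakdown 285 kb from HoxA, fell by 1.86 ± 0.13 (1.04e-06). The measured neighbors of HoxD did not pass the threshold, with log2 fold changes in d14 against uninjured cells of 0.20 ± 0.31 for Lnpk, 0.045 ± 0.14 for Mtx2 and 0.013 ± 0.12 for Hnrnpa3 (0.641, 0.824 and 0.943). Lnpk, Mtx2 and Hnrnpa3 lie 88.9, 60.7 and 894 kb from HoxD. Evx2, 8.75 kb from Hoxd13, had almost no counts, and Evx1 had none.

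Of the 9 TALE cofactors that bind DNA with HOX proteins, all tested, 2 rose and 0 fell in d14 against uninjured cells, none changed in 48 h against uninjured cells, and 1 rose and 1 fell in d14 against 48 h cells. Their median log2 fold changes in these comparisons were 0.34, 0.20 and 0.070, beside 0.060, 0.020 and 0.055 for all genes. The shares of all genes tested were 25.1, 17.4 and 16.8% risen and 20.7, 11.7 and 16.3% fallen. Meis3 averaged 2.94 ± 0.545 CPM in d14 cells, 0.123 ± 0.213 CPM in 48 h cells and 0.139 ± 0.161 CPM in uninjured cells, and rose by 4.45 ± 1.24 in d14 against uninjured and 4.24 ± 1.29 in d14 against 48 h cells (edgeR adjusted p = 0.0125 and 0.0266). Pbx4 rose by 3.10 ± 1.09 in d14 against uninjured cells (0.0369), and Meis2 fell by 2.11 ± 0.63 in d14 against 48 h cells (0.0252). In 48 h against uninjured cells the change of Pbx2 was -0.053 ± 0.20 (edgeR adjusted p = 0.875), with 26.1 ± 3.72 CPM in d14 cells, 25.2 ± 8.19 CPM in 48 h cells and 25.8 ± 1.42 CPM in uninjured cells.

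Of 19 Polycomb genes, 6 rose and 2 fell in d14 against uninjured cells, 2 rose and 6 fell in 48 h against uninjured cells, and 11 rose and 0 fell in d14 against 48 h cells. The medians were 0.065, -0.23 and 0.49 on the log2 scale, beside 0.060, 0.020 and 0.055 for all genes. The shares of all genes tested were 25.1, 17.4 and 16.8% risen and 20.7, 11.7 and 16.3% fallen. Cbx6, a reader of the Polycomb mark, averaged 146 ± 22.3 CPM in d14 cells, 62.1 ± 5.78 CPM in 48 h cells and 62.0 ± 5.90 CPM in uninjured cells, and changed by 1.24 ± 0.14 in d14 against uninjured and 1.23 ± 0.14 in d14 against 48 h cells (edgeR adjusted p = 2.72e-05 and 1.15e-04). Phc2 and Pcgf2, parts of the repressive complex PRC1, rose by 0.87 ± 0.11 and 1.05 ± 0.17 in d14 against uninjured cells (6.46e-05 and 3.50e-04). Phc1 and Ezh1 fell by 0.64 ± 0.10 and 0.74 ± 0.12 in 48 h against uninjured cells (7.00e-04 and 0.00117).

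Of 15 Trithorax genes and Hox activators, 9 rose and 1 fell in d14 against uninjured cells, 1 rose in 48 h against uninjured cells, and 8 rose in d14 against 48 h cells. Their medians were 0.51, -0.062 and 0.53 on the log2 scale, beside 0.060, 0.020 and 0.055 for all genes. The shares of all genes tested were 25.1, 17.4 and 16.8% risen and 20.7, 11.7 and 16.3% fallen. Kmt2a (MLL1), a histone methyltransferase that maintains Hox expression, averaged 86.5 ± 7.49 CPM in d14 cells, 46.6 ± 7.28 CPM in 48 h cells and 34.9 ± 3.73 CPM in uninjured cells. It rose by 1.31 ± 0.14 in d14 against uninjured, 0.42 ± 0.14 in 48 h against uninjured and 0.89 ± 0.14 in d14 against 48 h cells (edgeR adjusted p = 1.77e-05, 0.0405 and 8.01e-04). Kdm6b, a demethylase of the Polycomb mark, rose by 0.72 ± 0.11 and Kmt2b by 0.89 ± 0.14 in d14 against uninjured cells (3.39e-04 and 4.10e-04).

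Of 18 genes of the retinoic acid pathway, a regulator of Hox genes in the embryo, 12 were tested. In d14 against uninjured cells 3 rose and 3 fell, in 48 h against uninjured cells 2 rose and 3 fell, and in d14 against 48 h cells 2 rose and 3 fell. The medians were 0.45, 0.37 and 0.12 on the log2 scale, beside 0.060, 0.020 and 0.055 for all genes. Among all genes tested, 25.1, 17.4 and 16.8% rose and 20.7, 11.7 and 16.3% fell in these comparisons. Crabp1 was at 0 in every library. Rxra, a partner receptor, averaged 77.4 ± 8.41 CPM in d14 cells, 124 ± 21.5 CPM in 48 h cells and 191 ± 7.88 CPM in uninjured cells and fell by 1.31 ± 0.14 in d14 against uninjured cells (edgeR adjusted p = 1.97e-05). Dhrs3, which reduces retinal, fell by 1.05 ± 0.17, and Aldh1a2, which makes retinoic acid, rose by 3.82 ± 0.74 in the same comparison (4.10e-04 and 0.00143). Aldh1a2 averaged 4.29 ± 1.16 CPM in d14 cells, 0.761 ± 0.778 CPM in 48 h cells and 0.295 ± 0.145 CPM in uninjured cells. The Cdx genes, activators of trunk Hox genes in the embryo, were not testable: Cdx1 and Cdx2 had no counts, and Cdx4 averaged 0.358, 0.0374 and 0.409 CPM in d14, 48 h and uninjured cells.

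Of 13 partners and targets of the Hox genes of number 11 in the developing kidney, 9 were tested, and 4 rose and 1 fell in d14 against uninjured cells, 2 rose in 48 h against uninjured cells, and 4 rose and 1 fell in d14 against 48 h cells. The medians were 1.04, 0.41 and 0.99 on the log2 scale, beside 0.060, 0.020 and 0.055 for all genes. Among all genes tested, 25.1, 17.4 and 16.8% rose and 20.7, 11.7 and 16.3% fell. Pax2, a transcription factor of the nephron and collecting duct lineages, averaged 56.3 ± 3.48 CPM in d14 cells, 26.0 ± 2.12 CPM in 48 h cells and 19.4 ± 2.03 CPM in uninjured cells. It rose by 1.53 ± 0.12 in d14 against uninjured cells, 0.41 ± 0.12 in 48 h against uninjured cells and 1.12 ± 0.12 in d14 against 48 h cells (edgeR adjusted p = 2.07e-06, 0.0250 and 9.48e-05). Six4 rose by 5.10 ± 0.70 and Sall1 by 1.04 ± 0.17 in d14 against uninjured cells (1.22e-04 and 5.09e-04). Six2, a gene of nephron progenitors, had no counts in any library, and Eya1 averaged 0, 0.0154 and 0.0846 CPM in d14, 48 h and uninjured cells.

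Summed markers of distal nephron and collecting duct were highest in d14 and lowest in uninjured libraries, like the HoxB and HoxD sums. Not every marker took these steps. Aqp2 averaged 93.8, 107.5 and 4.65 CPM in d14, 48 h and uninjured cells, with no call in d14 against 48 h cells (-0.20 ± 0.17, edgeR adjusted p = 0.410). The marker counts here and below stand beside the shares of all genes tested. In d14 against uninjured cells 25.1% rose and 20.7% fell. In 48 h against uninjured cells 17.4% rose and 11.7% fell, and in d14 against 48 h cells 16.8% rose and 16.3% fell. Summed over 12 markers of collecting duct principal cells, such as Aqp2, the level was 587 to 871 CPM in d14 libraries, 359 to 430 CPM in 48 h libraries and 65.0 to 88.2 CPM in uninjured libraries. Of these 12, 11 rose in d14 against uninjured, 11 in 48 h against uninjured and 8 in d14 against 48 h cells, and none fell. The 11 markers of intercalated cells summed to 245 to 277 CPM in d14, 90.0 to 112 CPM in 48 h and 23.4 to 36.8 CPM in uninjured libraries, with 10, 6 and 5 risen and none fallen in the 3 comparisons. The 7 markers of thick ascending limb summed to 3060 to 5650 CPM in d14, 850 to 1090 CPM in 48 h and 386 to 489 CPM in uninjured libraries, with 5, 5 and 6 risen and 1 fallen in each comparison. The 7 markers of distal convoluted and connecting tubule summed to 2250 to 3760 CPM, 366 to 652 CPM and at most 151 CPM in d14, 48 h and uninjured libraries, with 6, 4 and 6 risen and 0, 0 and 1 fallen. The 6 markers of thin limb summed to 262 to 287 CPM, 158 to 204 CPM and 28.6 to 44.3 CPM in the same groups, with 5, 5 and 2 risen and none fallen.

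The opposite held for proximal tubule, the cell type by which the uninjured group was labelled. Its 14 markers summed to 3810 to 5120 CPM in d14 libraries, 7100 to 14200 CPM in 48 h libraries and 22600 to 24500 CPM in uninjured libraries, and 13, 11 and 10 of them fell in d14 against uninjured, 48 h against uninjured and d14 against 48 h cells, with none risen. The part of these cell types in the Hox result was not tested.

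**Figure D5:**
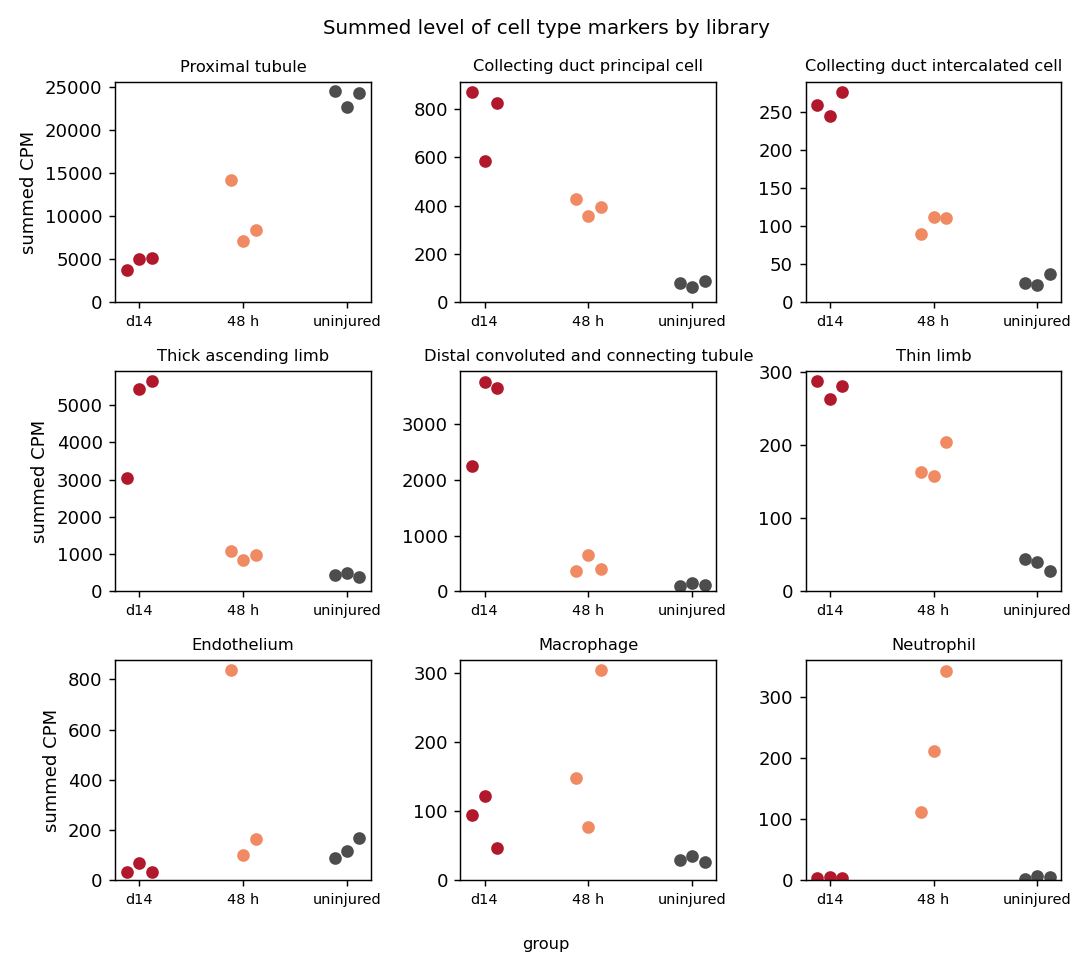
Summed CPM of the markers of 9 cell types (1 panel each, vertical axis from 0 with its own range) in each library of the d14, 48 h and uninjured groups. Proximal tubule markers are lowest in d14 libraries, collecting duct, limb and distal tubule markers are highest there, and neutrophil markers are highest in 48 h libraries.

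Other cell types moved otherwise. Neutrophil markers summed to 3.43 to 5.90 CPM in d14 libraries, 113 to 343 CPM in 48 h libraries and 2.80 to 8.003 CPM in uninjured libraries, with 5 of 7 risen in 48 h against uninjured, 5 fallen in d14 against 48 h and 1 risen in d14 against uninjured cells. Endothelial markers summed to 32.2 to 71.0 CPM, 101.2 to 835 CPM and 88.2 to 167 CPM in d14, 48 h and uninjured libraries, and all 10 fell in d14 against 48 h cells, with no call in the other comparisons. Macrophage markers summed to 47.2 to 122 CPM in d14, 76.7 to 305 CPM in 48 h and 27.1 to 35.0 CPM in uninjured libraries, with 5 of 10 risen against uninjured cells in each injured group and 2 fallen in d14 against 48 h cells. Markers of fibroblasts, pericytes and smooth muscle, a compartment in which Hox genes of number 10 act during development, summed to 28.4 to 71.5 CPM, 28.4 to 58.4 CPM and 32.8 to 44.5 CPM in d14, 48 h and uninjured libraries, with 3, 0 and 2 of 12 risen in d14 against uninjured, 48 h against uninjured and d14 against 48 h cells and none fallen. Podocyte markers summed to 37.3 to 52.02 CPM, 47.1 to 153 CPM and 38.5 to 60.7 CPM in the same groups, with 2, 2 and 0 of 6 risen and 1, 0 and 1 fallen in the 3 comparisons. Lymphocyte markers summed to 2.23 to 4.04 CPM, 1.72 to 3.20 CPM and 2.25 to 2.87 CPM in d14, 48 h and uninjured libraries, with no call among the 2 of 10 tested. Urothelial markers summed to 3.94 to 8.19 CPM, 6.73 to 21.3 CPM and 0 to 0.391 CPM in the same groups, with 1, 1 and 0 of 6 (2 tested) risen and none fallen. The gene that rose, Krt20, averaged 5.21, 13.3 and 0.120 CPM and made up most of the sum in the injured groups. Upk1b, Upk2 and Upk3a averaged at most 0.0806 CPM in any group. No marker in any of these lists was at 0 in all libraries.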

How the data were processed

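RNA of sorted kidney cells was sequenced after poly(A) selection in 9 libraries. The authors deposited whole-number expected counts per gene; STAR 2.6.1 and RSEM 1.2.28 are named in the submitters' processing notes. The sources used here do not give the strand setting of the counting. The notes list mm10 beside a human build, and the gene identifiers are those of mouse. All 92 spike-in rows held no counts and were left out. Groups and replicates followed the labels.

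Genes with at least 10 counts in enough libraries and 15 in all were kept (15519 genes, holding at least 99.89% of counts), library sizes were TMM-scaled, and edgeR 4.0.16 (R 4.3.3) fitted a robust quasi-likelihood model to all 9 libraries, with Benjamini-Hochberg adjustment and a threshold of 0.05. SE is the log2 fold change divided by the square root of F. Counting intervals and floors cover counting error only. Members with a mean above 1 CPM in any group, or called, were given per library; of each pathway list, up to 3 called genes with the smallest p were eligible, or the 2 most abundant. Members and lists were chosen with earlier results of these data known. Other normalizations, no filter, DESeq2 1.42.0, voom (limma 3.58.1), only the groups compared, a replicate block and leaving out each library were tried. Values of some genes are not reported here.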

Additional observations from a re-analysis of the deposited data

How the results depend on the processing

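Without composition scaling, 0 Hox genes fell in d14 against uninjured or against 48 h cells, where the fit as reported gave 1 each, and 7746 genes of all changed in d14 against 48 h cells, as compared with 5137. Among the 54 of 93 fold changes past the threshold in any setting, it turned 5 positive that were negative and not called as reported: Hoxa7 (0.19), Hoxa9 (0.11) and Hoxc10 (0.17) in d14 against uninjured cells, and Hoxa7 (0.24) and Hoxc10 (0.13) in d14 against 48 h cells. Of the 39 changes never past the threshold, 23 changed sign in some setting. The number that fell in d14 against uninjured cells was 3 with no filter, 4 with DESeq2, 4 with voom, 5 with only the 2 groups in the fit and 2 with the replicate block, and 1 to 3 over the fits that left out a library. In d14 against 48 h cells it was 2 with the size factors of DESeq2 in edgeR, 3 with DESeq2, and 1 to 2 over the leave-one-out fits. The cause was not tested. The numbers that rose stayed within 13 to 15 in d14 against uninjured, 11 to 12 in 48 h against uninjured and 12 to 15 in d14 against 48 h cells over the planned settings other than leave-one-out, and within 13 to 14, 11 to 13 and 11 to 14 over leave-one-out. None fell in 48 h against uninjured cells in any leave-one-out fit. Leave-one-out fits called 5805 to 7990, 3141 to 4640 and 3625 to 5141 genes of all in the 3 comparisons, and left 25 to 26, 26 to 27 and 25 to 26 Hox genes above 1 CPM in d14, 48 h and uninjured cells.

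Hoxd11 in 48 h against uninjured cells, with counts at or near 0, changed by -3.55 ± 2.34 in the fit as reported (edgeR adjusted p = 0.295). Under voom the change was 0.032. Summed with Hoxd10 and Gm28309, an alternative chosen after seeing the data, it was 2.36. That sum is mostly Hoxd10, whose own change was 2.43, and Hoxd11 had 0 counts in every 48 h library. Same-numbered libraries correlated at -0.127 to 0.019 in their deviations from the group means, and differently numbered ones at -0.047 to 0.097. With 3 libraries per group, such values cannot decide whether the numbers pair libraries, and the labels do not say. With the replicate block, Hoxa9 was called lower in d14 against uninjured cells (-0.47, adjusted p = 0.0158) and Hoxd11 was not called (0.0609); no other Hox call changed. Hoxa5 rose in d14 against 48 h cells without composition scaling (0.93, 0.0148). Hoxa2 rose in d14 against uninjured cells under voom (2.65, 0.0193) and without composition scaling (2.57, 0.0442). Depth limits Hoxa2, Hoxa11, Hoxc11 and Hoxd11, which were near 1 CPM or below.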
